A study of Mus musculus with 26 samples.

Results

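The genes described here are the nuclear genes for subunits of the mitochondrial respiratory chain and ATP synthase, in mouse mesenteric arteries. They were chosen by symbol: every row of the authors' table of normalized counts whose symbol begins with Ndufa, Ndufb, Ndufc, Ndufs, Ndufv, Uqcr, Cox4i, Cox5, Cox6, Cox7, Cox8 or Atp5, together with Sdha to Sdhd. Pseudogenes marked -ps, the Ndufaf assembly factors, Cox7a1 and Cox8b were left out. The rule found 80 of the 21031 genes in that table: 36 of complex I, 4 of complex II, 8 of complex III, 15 of complex IV and 15 of complex V. The other 2, Atp5sl and Atp5s, carry older symbols of Dmac2 and Dmac2l, which are assembly-related genes and not subunits. Symbols are given as in the authors' table, where 17 of the 80 genes have an older name than the current one (Atp5b is Atp5f1b, Atp5a1 is Atp5f1a, Atp5g1 to Atp5g3 are Atp5mc1 to Atp5mc3, and Atp5d is Atp5f1d). All 80 genes passed the filter on low counts in every comparison.

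The series measured polyA RNA by 150-base paired-end sequencing in arteries of male mice 8 weeks old. Pannexin 1 (Panx1) forms large-pore channels in the plasma membrane, and the mouse lines carried a global loss of Panx1 or a substitution at 1 of 3 residues of the protein. The 26 libraries fall into 8 groups: wild type (3) and global Panx1 knockout (3), and, for each of Y198F (3), S205A (4) and Y308F (3), mutants labelled +/+ for the substitution and controls labelled -/- for it (3, 4 and 3). The series text counts 3 vascular trees a group, so the origin of the additional S205A libraries is not clear from it. The controls of the substitution lines are described as littermate or wild-type, and the wild-type libraries served as controls of the knockout. Nothing in the labels says whether each library is 1 animal, so p-values measure the spread between these libraries.

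Nuclear genes encode most subunits of the respiratory chain, and the mitochondrial genome encodes the remaining core ones. Complex I (NADH dehydrogenase) and complex II (succinate dehydrogenase) pass electrons to ubiquinone, complex III passes them to cytochrome c, complex IV reduces oxygen, and complex V makes ATP from the proton gradient. In arterial smooth muscle this machinery works beside an active glycolysis, and its nuclear genes are known targets of the transcription factors NRF1 and GABP.

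Libraries held 14895969 to 23617902 counts, and the 80 genes took 0.512% to 0.723% of them. The knockout label was checked on Panx1 itself, which stood at 3.38 to 4.96 CPM (counts relative to the library total, scaled by edgeR's TMM factors over all 26 libraries) in wild type and at 0.583 to 1.36 CPM in the knockout. Of the other 23 libraries, wild type included, 22 lay at 1.56 to 5.32 CPM, and S205A control 1, labelled as unmutated, lay within the knockout range at 0.830 CPM (16 counts). Of 6 smooth muscle markers, Myh11, Acta2, Des, Smtn and Cnn1 had at least 545 CPM in each library, and Tagln had 25.5 to 153 CPM. Library names split the samples: the number begins with 22 in all 3 Y198F libraries, S205A controls 1 to 3 and S205A 2 to 4, here called the 22 series, and in none of the other 17. Nuclear ribosomal RNA genes took 0.0832% to 0.139% of counts in the 22 series and 2.32% to 7.09% in the others. The labels do not say what the number stands for. The Y198F mutants are thus all inside the 22 series and the Y198F controls all outside it.

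The members differed widely in level. Atp5b, the catalytic beta subunit of ATP synthase, was the most abundant at 644 ± 85.3 CPM (SD, n = 26) and 334.5 CPM per kb of its canonical transcript, above 99.4% of genes on that scale. Next per kb came 4 genes of complex IV, Cox6a1 (245.3), Cox4i1 (234.8), Cox8a (224.5) and Cox6c (221), and then Atp5a1, the alpha subunit of ATP synthase (202.3). The median per kb of canonical transcript was 91.7 in complex V and 90.4 in complex IV, against 53.2 in complex III, 50.6 in complex II and 38.9 in complex I. Dividing by the merged length of all exons in place of the canonical transcript gave medians of 26.2 in complex II, 19.8 in complex V, 19.2 in complex III, 14.4 in complex IV and 12.7 in complex I. It also put Cox6a1 (196.7 CPM per kb) and Cox8a (141.9) above Atp5b (139.2), so the order of the complexes and of the top genes depends on the transcript length used. Ndufb2, an accessory subunit of complex I, was lowest on either length, at 2.26 CPM per canonical kb. Its gene overlaps Braf on the other strand.

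**Figure D1:**
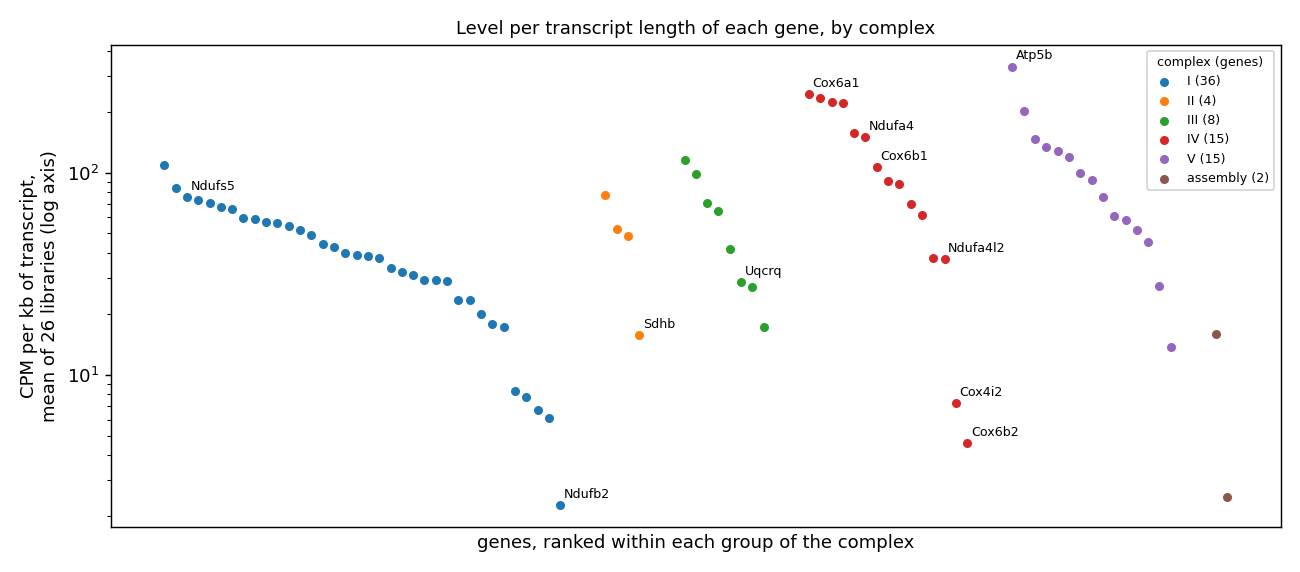
Mean level of each of the 80 genes over 26 libraries, in CPM per kb of canonical transcript on a log axis, ranked within each complex; each point is 1 gene. Complex IV and complex V hold the highest genes, led by Atp5b at 334.5, and Cox4i2, Cox6b2 and Ndufb2 lie lowest within their complexes.

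Alternative subunits differed in level, here in CPM per kb of canonical transcript. Cox4i1, the common form of the subunit at the start of complex IV assembly, stood at 234.8 CPM per kb, and Cox4i2, the form known from lung and from oxygen-sensing cells, at 7.27. Cox6b1 stood at 106.4 and Cox6b2, the testis form, at 4.58. Ndufa4, a complex IV subunit despite its name, stood at 150.3 and its hypoxia-responsive paralog Ndufa4l2 at 37.2, an order that turns on the merged exon length, where Ndufa4 had 9.19 and Ndufa4l2 31.3. Among the 3 genes for the c-ring of ATP synthase, which give the same mature protein, Atp5g3 stood at 133.6, Atp5g2 at 120 and Atp5g1 at 91.7 CPM per kb. Pseudogene copies identical to part of Atp5g2 held counts equal to 69.1% of its own, so its place in this order is uncertain. Of genes outside the rule, the heart and muscle isoform Cox6a2 had at most 0.276 CPM in any library, and Cox7a1, the muscle form of Cox7a, at most 2.44 CPM. Atpif1, which encodes the inhibitor of ATP synthase, had 13.2 to 24.2 CPM.

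Among the 80 genes, correlations between pairs were mostly positive. In the 17 libraries outside the 22 series, 95.1% of gene pairs had a positive correlation of log2 CPM, with a median r of 0.637. In the 9 libraries of the 22 series the share was 85.2% and the median r was 0.465. These pairs share libraries and their scaling, so the values are descriptions. The libraries span groups whose levels differ, and no such values were computed for other genes. Whether this is particular to the members was not tested. By library, wild type 3 had 77 of the 80 genes above their own mean over the 17 libraries, and Y308F 3 had 3. Within wild type the counts were 70, 72 and 77 genes, and within the knockout they were 7, 34 and 11.

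Members also share features that the rule did not use. Their canonical transcripts had a median length of 1090 bases in 4 exons, against 3430.5 bases in 9 exons over 14868 protein-coding genes of the same table, while median GC content was 51.4% against 50.4%. Values of other short transcripts are given below for the knockout, Y198F, the library series and Y308F. Of the 80 genes, 54 overlap an annotated gene on the other strand, and the labels do not say whether counting used strand, so for these genes reads of the partner cannot be told apart. Of the 80, 6 genes (Atp5g1, Atp5g2, Atp5k, Atp5l, Ndufs5 and Uqcrb) have a pseudogene copy of at least 95% identity over at least 50% of the transcript, and reads shared with it make their counts uncertain. The copies' counts over all libraries were 69.1% of the gene's own for Atp5g2, 14.02% for Ndufs5 and 0.043% to 1.39% for the others.

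Start-proximal sequence was searched from 250 bases before to 50 bases after each annotated start, on both strands, with GENCODE vM39 on GRCm39. The core of the NRF1 site, GCGCATGCG, lay in 6 of 80 member promoters (7.5%, Wilson 95% interval 3.48% to 15.4%) and in 2.89% of promoters of the 14868 protein-coding genes. Its looser form GCGCANGCG, which includes the former, lay in 17.5% against 10.6%. The ETS core that GABP binds, CCGGAAGT, lay in 5.0% against 5.97%, and the YY1 core AAGATGGCG in 2.5% against 1.88%. With RefSeq promoters of the same length on GRCm38.p6, which 67 members matched, the NRF1 core lay in 11.9% of members and in 1.95% of all 27025 genes of that table, and the looser form in 29.9% against 7.03%. In that table the ETS core lay in 7.46% against 4.31% and the YY1 core in 11.9% against 1.64%. The tables differ in their starts, build, matched members and background genes, and which of these moved the shares was not tested. With the GENCODE starts over all 21770 protein-coding genes, the ETS core lay in 4.35%, so whether the members' 5.0% is the higher share depends on the background genes. The 250 bases before the start of Ndufs5 (chr4:123612003-123612252, minus strand), of Ndufb4 (chr16:37474816-37475065, minus strand) and of Uqcr11 (chr10:80242677-80242926, minus strand) on GRCm39 are shown as examples. Each holds a match with no annotated exon in the window. Of the 19 member promoters with a match to any of these motifs, 5 had no annotated exon in the 250 bases. Capitals mark the match to the looser NRF1 form in Ndufs5 and Ndufb4, which begins 75 and 106 bases before the start, and the ETS core in Uqcr11, which begins 45 bases before it.
Ndufs5: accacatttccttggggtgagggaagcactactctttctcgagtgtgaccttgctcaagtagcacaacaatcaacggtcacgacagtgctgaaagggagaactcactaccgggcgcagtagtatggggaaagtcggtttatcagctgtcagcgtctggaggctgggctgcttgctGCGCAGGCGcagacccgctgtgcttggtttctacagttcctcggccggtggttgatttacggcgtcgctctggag
Ndufb4: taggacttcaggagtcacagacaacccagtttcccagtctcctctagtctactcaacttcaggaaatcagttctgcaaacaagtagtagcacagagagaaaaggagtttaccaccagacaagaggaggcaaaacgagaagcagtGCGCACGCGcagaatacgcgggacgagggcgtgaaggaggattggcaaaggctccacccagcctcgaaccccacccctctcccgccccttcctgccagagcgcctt
Uqcr11: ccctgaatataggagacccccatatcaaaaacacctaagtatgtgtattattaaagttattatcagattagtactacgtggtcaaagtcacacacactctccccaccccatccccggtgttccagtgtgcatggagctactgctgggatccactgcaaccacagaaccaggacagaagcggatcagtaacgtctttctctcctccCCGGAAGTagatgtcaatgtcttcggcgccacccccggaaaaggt

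The global knockout was compared with wild type to ask what changes when the channel is lost. The summed level of the 80 genes was 6678, 6909 and 7288 CPM in wild type and 5589, 5951 and 5685 CPM in the knockout, so the groups did not overlap. Before scaling, the 80 genes took 0.631% to 0.711% of counts in wild type and 0.575% to 0.615% in the knockout. The TMM factors were 0.913 to 0.976 in wild type and 1.029 to 1.075 in the knockout, so scaling widened the difference. Of the 80 genes, 75 had a negative log2 fold change and the median was -0.27, against 0.01 over all 16193 genes tested. No member passed an adjusted p of 0.05 in edgeR's quasi-likelihood test, which called 0.0309% of all genes, and the smallest adjusted p of a member was 0.265. At an unadjusted p under 0.05, 43 members were lower (5.92% of all genes) and 0 were higher (5.3%). Every knockout library lay below every wild-type library for 54 members, a pattern shown by 10.5% of all genes, and the reverse held for 1 member (8.24%). In bulk tissue, fewer cells of a type and less RNA per cell cannot be told apart.

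**Figure D2:**
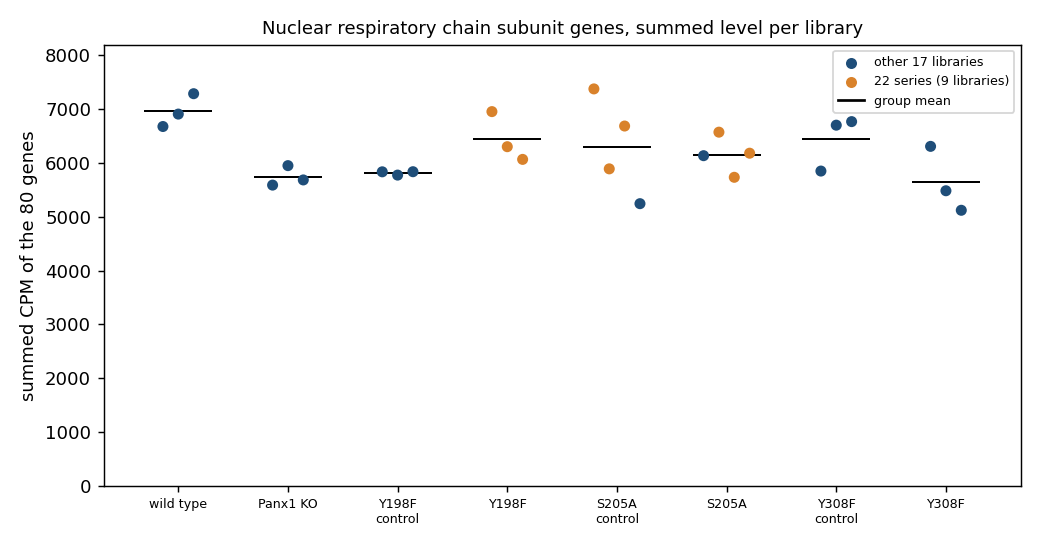
Summed CPM of the 80 genes in each library by group; points are libraries, bars are group means, and orange points are the 22 series. Wild-type libraries lie at 6678 to 7288 and knockout libraries at 5589 to 5951, without overlap, while the S205A groups and the Y308F groups overlap.

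By complex, the knockout medians were similar. They were -0.27 in complex I (36 genes, 2 with a positive sign), -0.20 in complex II (4 genes, 0 positive), -0.35 in complex III (8 genes, 0 positive), -0.35 in complex IV (15 genes, 1 positive) and -0.25 in complex V (15 genes, 0 positive). Both assembly-related genes had a positive sign, with a log2 fold change of 0.12 for Atp5sl and 0.37 for Atp5s.

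Among complex I genes, Ndufa2, an accessory subunit of the NADH-binding arm, had the largest negative fold change. Its level was 61.8, 45.6 and 49.1 CPM in wild type and 34.3, 33.6 and 31.5 CPM in the knockout, a log2 fold change of -0.63 ± 0.13 (SE, adjusted p = 0.281 in edgeR). Ndufs5, an accessory subunit on the intermembrane side, lies at chr4:123606481-123612002 in GRCm39. Its level was 55.6, 58.4 and 54.9 CPM in wild type and 36.8, 41.1 and 33.4 CPM in the knockout, a log2 fold change of -0.58 ± 0.11 (adjusted p = 0.265). Both genes separated the groups, and neither passed the edgeR test. In the authors' deposited table, made with DESeq2, Ndufs5 had a log2 fold change of -0.59 and an adjusted p of 0.0122, and it was the only member among the 20 genes called there. A DESeq2 Wald test on the filtered counts called 5 members lower (0.593% of all genes were): Ndufs5 (adjusted p = 0.00867), Ndufa2 (0.0153), Cox8a (0.0265), Cox4i1 (0.0324) and Ndufa4l2 (0.0487).

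A fixed set of subunits, called core in this text, had a median log2 fold change of -0.23, against -0.27 over the 80 genes. This difference was not tested. All 11 of those examined (Ndufs1, Ndufv1, Ndufs8, Sdha, Sdhb, Uqcrc1, Uqcrfs1, Cox4i1, Cox5a, Atp5a1 and Atp5b) had a negative sign, from -0.44 for Cox5a to -0.09 for Sdha, and their adjusted p ranged from 0.314 to 0.778. Cox4i1 stood at 197, 212 and 236 CPM in wild type and 151, 158 and 163 CPM in the knockout, a log2 fold change of -0.42 ± 0.11. Sdha, the flavoprotein of succinate dehydrogenase, stood at 259, 259 and 274 CPM against 234, 246 and 252 CPM. For Uqcrfs1, the Rieske iron-sulfur protein of complex III, the levels were 62.3, 70.2 and 72.7 CPM against 51.5, 53.2 and 54.3 CPM. These genes thus kept the groups apart at differences of unequal size.

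Of the alternative subunits, Ndufa4l2 had a log2 fold change of -0.55 ± 0.12 (adjusted p = 0.301), with 31, 35 and 33.5 CPM in wild type and 25.3, 20.7 and 21.1 CPM in the knockout. Its common partner Ndufa4 had -0.26 ± 0.10. Cox6a1 stood at -0.38, Cox6b1 at -0.40, Cox7a2l at -0.27, Atp5g2 at -0.33, Atp5g3 at -0.29 and Atp5g1 at -0.09. Cox4i2 (-0.27 ± 0.27) and Cox6b2 (-0.22 ± 0.38) are expressed at a few CPM and their groups overlapped. Cox7a2 was at 0.01, with 54.7, 51 and 59.1 CPM against 49.4, 57.1 and 57.2 CPM.

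The largest positive values belonged to low genes. Ndufb2 had 6.51, 6.88 and 9.41 CPM in wild type and 10.4, 9.72 and 9.46 CPM in the knockout, a log2 fold change of 0.39 ± 0.20 (adjusted p = 0.501). Atp5s overlapped between the groups, at 0.37 ± 0.27 (adjusted p = 0.646).

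**Figure D3:**
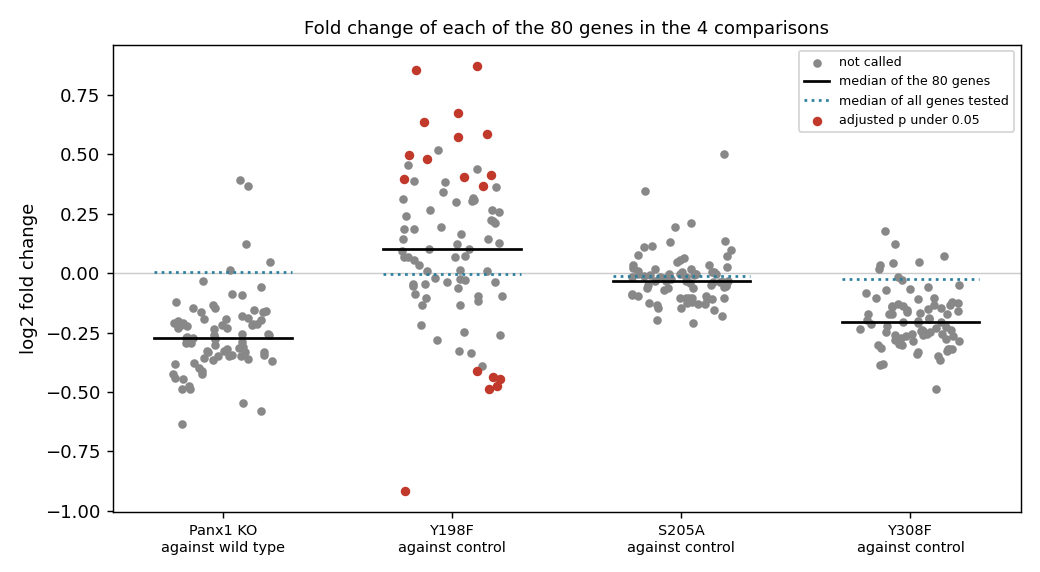
Log2 fold change of each of the 80 genes in the 4 comparisons; red points passed an adjusted p of 0.05, black bars are the medians of the 80 genes and dotted bars those of all genes tested. The median was -0.27 for the knockout, 0.10 for Y198F, -0.03 for S205A and -0.20 for Y308F, and called genes appear only in Y198F, where mutant and control libraries belong to different library series.

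The wild-type libraries stood high for some members. Ndufs5 and Ndufb6, 2 of the 80, were higher in all 3 wild-type libraries than in all other 23 libraries (0.235% of all genes were). With Cox4i1, Ndufs6, Ndufs7 and Uqcr10, 6 members were higher there than in the other 14 libraries outside the 22 series (0.764% of all genes). With the Y198F and Y308F controls in place of wild type, 65 members had a negative sign in the knockout, 64 of which were also negative against wild type. The median was -0.09 and the smallest adjusted p was 0.738. On that comparison Ndufs5 had a log2 fold change of -0.25 ± 0.11, Ndufa2 -0.26 ± 0.11 and Cox4i1 -0.11 ± 0.09. These controls come from other lines, so line and genotype cannot be told apart there.

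Other values of the knockout and wild-type libraries are given here. Of 14 lists of cell type markers, 0 had summed levels without overlap between these groups. Nuclear ribosomal RNA took 4.12% to 5.84% of counts in wild type and 2.32% to 3.09% in the knockout. All 6 white adipocyte markers had a negative sign with a median of -1.47, and their summed level was 412, 334 and 2026 CPM in wild type against 320, 130 and 655 CPM in the knockout, where the ranges overlapped. Ucp1, the defining brown adipocyte gene, was at 0 in all 6 of these libraries. Smooth muscle markers had a negative sign in 6 of 6 genes, with a median of -0.24 and overlapping summed levels. The part of these values in the result was not tested. The median over members was -0.23 without wild type 3, the library highest in adipocyte markers.

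Other short transcripts also had negative values in the knockout. Among transcripts under 1000 bases, 38 members had a median log2 fold change of -0.30 and 493 other protein-coding genes had -0.20, with quartiles of -0.36 and 0.02. Among transcripts over 4000 bases the medians were -0.33 for 5 members and 0.06 for 5597 other genes. In the 3 classes between, members were also lower than the other genes of their class, for example -0.23 against -0.12 at 1000 to 2000 bases. These differences within classes were not tested.

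In the knockout edgeR called no other gene of the pathway. A positive sign was found in 50.8% of all genes. Negative signs were found in 17 of 18 TCA cycle genes (median -0.20), 13 of 15 glycolysis genes (median -0.30), 14 of 19 genes of electron carriers (median -0.13) and 36 of 50 tested assembly factors (median -0.12). The summed level of each of these lists was lower in the knockout without overlap. TCA cycle genes summed to 1955 to 2638 CPM in wild type and 1791 to 1935 CPM in the knockout. Glycolysis genes summed to 3396 to 3865 against 2904 to 3124 CPM. Electron carriers summed to 515 to 649 against 473 to 505 CPM, and assembly factors to 858 to 942 against 776 to 821 CPM. Of the 13 protein genes of the mitochondrial genome, 9 had a positive sign (median 0.05), and their summed level overlapped, at 43870 to 74750 CPM in wild type and 57570 to 60460 CPM in the knockout. Cycs, which encodes cytochrome c, stood at 90.5, 104 and 112 CPM in wild type and 69.7, 84.6 and 83.5 CPM in the knockout. Ppargc1a, a coactivator of these genes, stood at 5.27, 6.82 and 5.5 CPM in wild type and 9.21, 8.16 and 9.46 CPM in the knockout, a log2 fold change of 0.63 ± 0.20 (adjusted p = 0.344), and was named after its values were seen.

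Y198F arteries, from mice with a tyrosine substitution, were compared with the labelled Y198F controls. Of the 80 genes, 12 rose (9.55% of all genes were called higher) and 6 fell (5.48% were called lower), at an adjusted p under 0.05 in edgeR's quasi-likelihood test. Summed over members the level was 5836, 5775 and 5838 CPM in the controls and 6955, 6303 and 6067 CPM in the mutants. The groups did not overlap for 29 members that were higher (19% of all genes) and 10 that were lower (15.1%), and the median log2 fold change was 0.10. Fitting all 8 groups together kept 6 of the 18 calls (Ndufs7, Ndufa11, Uqcrb, Uqcrc1, Cox6a1 and Atp5d) and called 4.93% of all genes. The other 12, among them Ndufa9, Cox5b, Cox7c, Cox7b, Cox8a, Cox7a2, Uqcr11, Atp5g2 and Atp5sl below, were not called there. Leaving out Y198F control 3 reduced the members called to 8, and 5.43% of all genes were called then, against 15% with that library. Among transcripts under 1000 bases, 38 members had a median of 0.20, with 18.4% called higher and 7.89% lower. The 486 other protein-coding genes of that length had a median of 0.13, with 12.6% called higher and 5.76% lower. Every mutant library here is of the 22 series and every labelled control is not, so genotype and series cannot be told apart in these calls. Of 14 lists of cell type markers, 3 had summed levels without overlap between the groups. Fibroblast markers summed to 2206 to 2792 CPM in the controls and 1328 to 2123 CPM in the mutants, Schwann cell markers to 94.9 to 171 against 77.7 to 91.7 CPM, and endothelial markers to 3556 to 4569 against 4609 to 5075 CPM. Of single smooth muscle markers, Tagln stood at 39.2 to 63.4 CPM in the controls and 94.7 to 123 CPM in the mutants. The part of these values in the calls was not tested.

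Among complex I genes, 4 rose and 2 fell. Ndufs7, an iron-sulfur subunit near the quinone site, stood at 40.2, 42.4 and 42.9 CPM in the controls and 82.1, 75.5 and 70.2 CPM in the mutants, a log2 fold change of 0.85 ± 0.10 (adjusted p = 0.00042). Ndufa11, an accessory membrane subunit, stood at 25.5, 29.8 and 32.1 CPM against 65, 49 and 46.6 CPM, a log2 fold change of 0.87 ± 0.15 (adjusted p = 0.00297). Both genes overlap a gene on the other strand, Gamt and Vmac. Ndufa9 fell by 0.47 on the log2 scale (adjusted p = 0.0301), with 71.9, 62.3 and 76.3 CPM against 58.5, 51.1 and 42.6 CPM.

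Complex III and complex IV held members called in both directions. Uqcrb, a small subunit of complex III, stood at 73.2, 75.8 and 69.8 CPM in the controls and 48.7, 33.6 and 34.1 CPM in the mutants, a log2 fold change of -0.92 ± 0.14 (adjusted p = 0.00213). In complex III, Uqcrc1 and Uqcr11 rose. Cox6a1 stood at 116, 115 and 105 CPM against 188, 176 and 175 CPM, a log2 fold change of 0.67 ± 0.10 (adjusted p = 0.00148). Cox5b (-0.45, adjusted p = 0.0108), Cox7c (-0.41, adjusted p = 0.0256) and Cox7b (-0.49, adjusted p = 0.0317) fell, while Cox8a and Cox7a2 rose. In complex V, Atp5d, the delta subunit of the central stalk, stood at 84.2, 90 and 83 CPM against 142, 130 and 130 CPM, a log2 fold change of 0.64 ± 0.10 (adjusted p = 0.00169). The c-ring gene Atp5g2 (0.50, adjusted p = 0.00515) and the assembly-related Atp5sl (0.58, adjusted p = 0.0129) also rose. Genes of 1 complex thus moved in opposite directions within the same libraries.

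**Figure D4:**
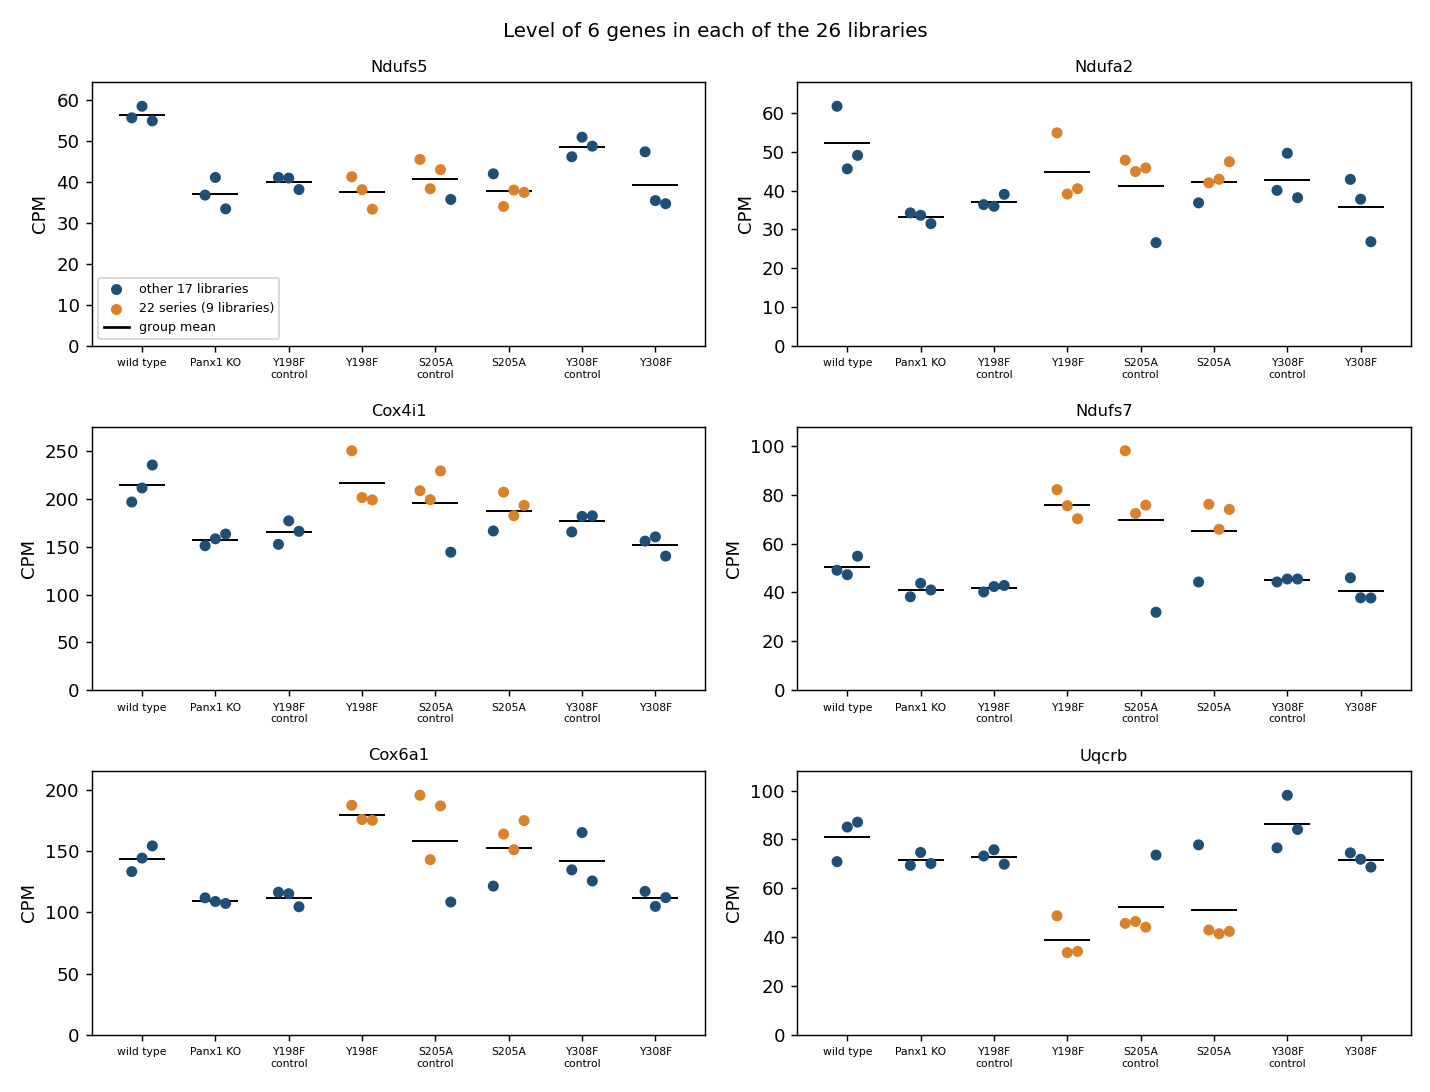
CPM of Ndufs5, Ndufa2, Cox4i1, Ndufs7, Cox6a1 and Uqcrb in each of 26 libraries by group; points are libraries, bars are group means, and orange points are the 22 series. For Ndufs7 all 9 orange points lie above all 17 blue points, for Uqcrb all 9 lie below, and for Ndufs5 the wild-type points, at 54.9 to 58.4, are the highest.

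The series-matched comparison set the same Y198F libraries against S205A controls 1 to 3, which are also of the 22 series but of another line. No member was called there (0% of all genes were), 52 of 80 had a negative sign and the median was -0.04. An unadjusted p under 0.05 was reached by 1 member, Ndufa4l2 (0.97% of all genes were lower at that level), and a DESeq2 Wald test called 34 genes (0.214%) and 0 members. For Ndufs7 the log2 fold change was -0.11 ± 0.14, for Cox6a1 0.03 ± 0.15, for Atp5d 0.05 ± 0.14, for Ndufa11 0.08 ± 0.17 and for Uqcrb -0.23 ± 0.17, all with an adjusted p of 1. The largest positive values were those of Atp5s (0.27) and Atp5sl (0.17), and the largest negative ones those of Ndufa4l2 (-0.41 ± 0.13) and Ndufa12 (-0.35 ± 0.16). Ndufa4l2 stood at 46.9, 55 and 53 CPM in the S205A controls of the 22 series and 42, 40.3 and 34.6 CPM in Y198F. It was 1 of 2 members lower without overlap (3.77% of all genes). Among these controls, S205A control 1 had Panx1 within the knockout range, at 0.830 CPM. Its summed level of the 80 genes, 7377 CPM, was the highest of all libraries. Fibroblast and white adipocyte markers had a positive sign in 6 of 6 genes each, with medians of 1.23 and 1.55. Smooth muscle markers had a positive sign in 0 of 6, with a median of -0.20. The part of these values in the result was not tested.

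**Figure D5:**
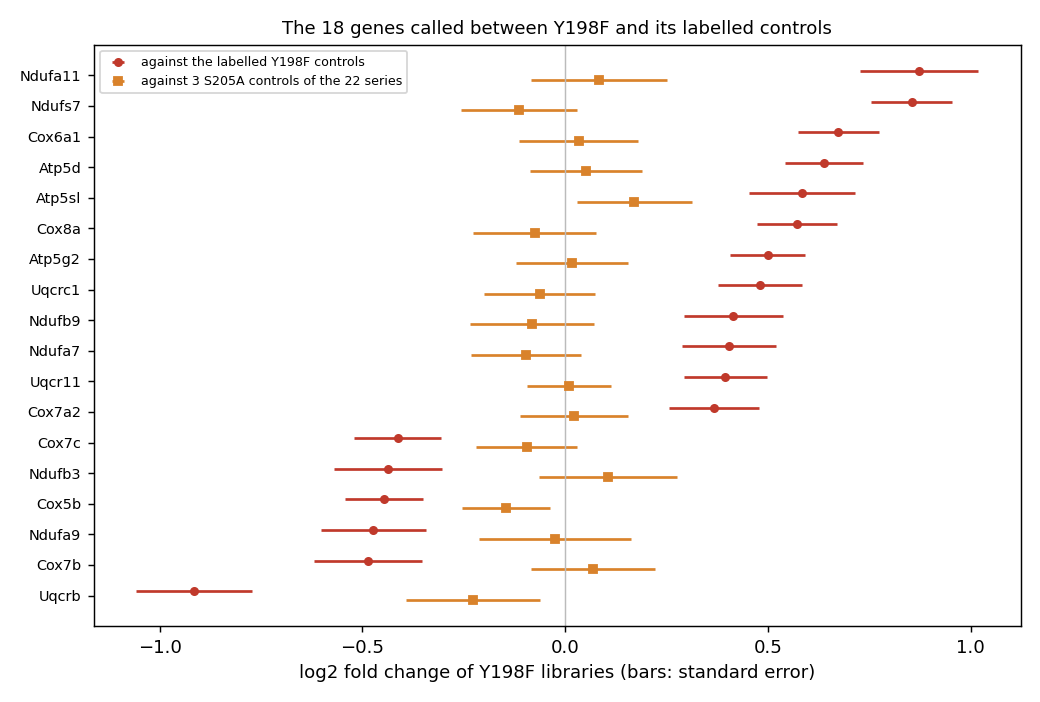
Log2 fold change with standard error of the 18 genes called between Y198F and its labelled controls, shown against those controls (red circles) and against 3 S205A controls of the 22 series (orange squares). Against the S205A controls the values of Ndufs7 and Cox6a1 are -0.11 and 0.03, and no gene was called.

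The series difference was measured inside the S205A line, where both genotypes have libraries of either kind, in a fit of all 8 groups with the series as a term. The 22 series was higher in 17 members (7.57% of all genes were called higher) and lower in 5 (4.13% were called lower), with a median of 0.14. The 4 higher members with the smallest p were Ndufs7 at 1.01 ± 0.14 (adjusted p = 3e-05), Atp5d at 0.64 ± 0.12, Cox6a1 at 0.56 ± 0.12 and Ndufv1 at 0.46 ± 0.11, and Ndufa3 had a larger value than the last 3 of these, at 0.66. Atp5k had the largest positive value after Ndufs7, at 0.69. Of the lower members, Uqcrb stood at -0.79 ± 0.11 (adjusted p = 5.83e-05), Cox7b at -0.64, Ndufb3 at -0.58 and Cox5b at -0.44. The term rests on S205A control 4 and S205A 1, the only libraries of the line outside the 22 series. Without S205A control 4, 3 members were called (1.51% of all genes, against 11.7% with it) and the median was -0.04. Without S205A 1, 19 members were called (4.99% of all genes) and the median was 0.29. In both fits without one of these, the other alone carries the term. For transcripts under 1000 bases, the median of the series term was 0.167 over 38 members and 0.175 over 556 other protein-coding genes.

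Single values show the split. Uqcrb stood at 45.6, 46.4 and 44 CPM in S205A controls 1 to 3 and at 73.6 CPM in S205A control 4. Across the mutants of that line it stood at 77.8 CPM in S205A 1 and at 42.9, 41.3 and 42.3 CPM in S205A 2 to 4. Ndufs7 went the other way, with 98, 72.4, 75.8 and 31.9 CPM in the controls and 44.3, 76.1, 65.9 and 74 CPM in the mutants. Uqcrb and Ndufs7 are shown because they had the largest negative and positive values of the series term. That term was fitted on these same libraries, so the split follows from the choice of genes. Outside the 22 series the line has only S205A control 4 and S205A 1.

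Around these members, the labelled Y198F comparison called 6 of 15 glycolysis genes higher, 6 of 19 genes of electron carriers higher, 3 of 18 TCA cycle genes higher, and 2 of 13 mitochondrial genome genes lower (mt-Atp8 and mt-Nd4l). Of 50 assembly factors, 2 were called higher and 1 lower. Over all genes 9.55% were called higher and 5.48% lower, and genotype and library series cannot be told apart in these counts either. In the authors' deposited Y198F table, 0 of the 80 members were called and the smallest adjusted p was 0.638. Which libraries entered that table as controls is not given in the sources used here.

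S205A arteries, from mice with a serine substitution, were compared with S205A controls. No member was called (0% of all genes were), none reached an unadjusted p under 0.05 (2.23% of all genes did as higher and 0.637% as lower), and none separated the groups (1.16% of all genes were higher without overlap and 0.649% lower). Under a DESeq2 Wald test 38 genes (0.242%) and 0 members were called. Summed levels were 7377, 5891, 6687 and 5244 CPM in the controls and 6136, 6573, 5734 and 6182 CPM in the mutants, a full overlap. Of the 80 genes 56 had a negative sign and the median was -0.03, and the 11 core genes lay between -0.13 and 0.06. The 2 largest positive values were those of the low genes Cox4i2 (0.50 ± 0.28) and Cox6b2 (0.35 ± 0.34), and the 2 largest negative ones those of Ndufa11 (-0.21 ± 0.20) and Ndufs6 (-0.20 ± 0.16). Among the 6 libraries of the 22 series alone, 68 members had a negative sign and the median was -0.10. Without S205A control 1, whose Panx1 level lay in the knockout range, 31 members had a negative sign and the median was 0.04.

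In the same arteries, all 13 protein genes of the mitochondrial genome had a negative sign with a median of -0.44, and the share of counts of these genes was 5.42% to 7.19% in S205A controls and 4.15% to 5.14% in S205A, without overlap. No gene of this list was called in edgeR, and its difference from the nuclear genes was not tested. All 6 fibroblast markers had a positive sign with a median of 1.40, their summed levels overlapped at 992 to 1442 CPM in the controls and 1434 to 4197 CPM in the mutants, and their part in the result was not tested.

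Y308F arteries, from mice with another tyrosine substitution, were compared with Y308F controls. Summed levels were 5850, 6703 and 6769 CPM in the controls and 6309, 5484 and 5121 CPM in the mutants, which overlap because control 1 is low and mutant 1 is high. Of the 80 genes, 73 had a negative sign and the median was -0.20, against -0.03 over all 16037 genes tested. No member was called by edgeR or by DESeq2 (0% of all genes were), and the smallest adjusted p was 0.94. At an unadjusted p under 0.05, 8 members were lower (1.93% of all genes), and 17 separated the groups as lower (5.75%) with 0 as higher (4.91%). Leaving out mutant 1 raised the 17 to 57 (12.7% of all genes with those 5 libraries) and moved the median to -0.31. Leaving out control 1 gave 42 (14.1% of all genes), and leaving out mutant 3 moved the median to -0.11.

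By complex, the Y308F medians were -0.18 in complex I, -0.17 in complex II, -0.23 in complex III, -0.20 in complex IV and -0.17 in complex V. Ndufb9, an accessory subunit of complex I, had the largest negative value, with 28, 32 and 30.1 CPM in the controls and 24.6, 23.2 and 16 CPM in the mutants (-0.49 ± 0.17, adjusted p = 0.94). Atp5j2, a membrane subunit of ATP synthase, stood at 62.2, 83.7 and 72.3 CPM against 65.9, 50 and 49.4 CPM (-0.39 ± 0.16). Cox6a1 stood at 135, 165 and 126 CPM against 117, 105 and 112 CPM (-0.34 ± 0.14), without overlap. Uqcrfs1 (-0.23 ± 0.11), Cox5a (-0.26 ± 0.13) and Sdhb (-0.20 ± 0.12) also separated the groups, while Ndufs1 (0.04 ± 0.15) and Sdha (0.03 ± 0.14) had a positive sign with overlap. The largest positive values were those of the low genes Atp5s (0.18) and Cox6b2 (0.12).

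In Y308F, members lay below other protein-coding genes of their length class, at -0.22 against -0.17 under 1000 bases and -0.20 against 0.06 over 4000 bases. Negative signs were found in 37 of 50 assembly factors (median -0.12), 13 of 15 glycolysis genes (median -0.10), 13 of 19 genes of electron carriers (median -0.15), 10 of 18 TCA cycle genes (median -0.01) and 10 of 13 mitochondrial genome genes (median -0.07), and none of these was called. White adipocyte markers were negative in 5 of 6 genes, with summed levels of 591, 1232 and 117 CPM in the controls and 685, 434 and 229 CPM in the mutants. Brown adipocyte markers summed to 20.8 to 24.3 CPM in the controls and 17.7 to 19.6 CPM in the mutants, without overlap. The part of both lists in the result was not tested.

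The differences between comparisons were tested as interactions in edgeR. Between the knockout and the Y198F comparisons, the effect was higher in the knockout for 1 member (4.33% of all genes) and lower for 26 (7.22%). Between the Y198F and the Y308F comparisons it was higher in Y198F for 12 members (3.91%) and lower for 0 (1.79%). The series difference enters both of these. The 4 other pairs gave 0 members, with 0.00562% of genes called for the knockout against S205A, 0.0116% for the knockout against Y308F and 0% for the other pairs. At an unadjusted p under 0.05, 12 members were lower in the knockout than in the S205A comparison (2.6% of all genes) and 0 were higher (1.56%). Between the knockout and Y308F, 0 members were lower (1.38%) and 0 were higher (1.72%) at that level. In the same way, the effect was higher in Y198F than in S205A for 10 members (8.39%) and lower for 3 (5.9%). The series difference enters this pair too. The effect was higher in S205A than in Y308F for 1 (1.69%) and lower for 0 (1.8%).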

How the data were processed

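The authors aligned reads to GRCm39 with STAR 2.7.9a and counted genes with featureCounts in Rsubread 2.20.0, per the series' design text and the labels. The deposited values are raw counts for 57010 gene identifiers, the authors' normalized counts (a signal: counts divided by 1 factor per library), and 4 tables of the authors' DESeq2 1.46.0 comparisons with log2 fold changes, a Wald score and p-values. Checked on the files, the normalized table holds the 21031 genes with over 50 counts in all. The members and lists were chosen with earlier results of these data known.

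Each comparison was fitted on the deposited counts of its own 2 groups with edgeR 4.0.16 (TMM, filterByExpr, robust quasi-likelihood F test, Benjamini-Hochberg adjustment over all genes tested, threshold 0.05) in R 4.3.3, after testing on simulated data. The series term and interactions came from fits of the groups concerned. Alternatives were DESeq2 1.42.0 (Wald test and size factors), no filter, all 8 groups in 1 fit, a replicate block, other controls, and each library left out. Levels in CPM share 1 TMM scale over 26 libraries. Library totals were 14895969 to 23617902 counts, so the spread between libraries, more than counting error, limits the precision of members above a few CPM. Lengths and starts are those of GENCODE vM39. Fold changes were named for up to 4 called members in each direction, the 2 largest in each direction, a set of 11 core subunits (another in that set is not reported here), the alternative subunits and the highest member of each complex.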

Additional observations from a re-analysis of the deposited data

Results flagged for a closer look

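In groups of 4 libraries, a value far from the other 3 was sought among 96 sets of values. Dixon's test found 8. A chance rate of about 1 in 20 is no reference here, since the sets share libraries. Cox7b, Uqcrb, Ndufb3 and Ndufv1 are also among the members named for the series term, which rests on S205A control 4 and S205A 1. In S205A controls, the library outside the 22 series (control 4) was high for Cox7b (74.28 CPM) and Uqcrb (73.58 CPM) and low for Ndufa2 (26.58 CPM). Among S205A mutants, the library outside the 22 series (mutant 1) was high for Uqcrb (77.75 CPM), Ndufb3 (36.95 CPM) and Ndufs6 (28.16 CPM) and low for Ndufv1 (78.05 CPM). The remaining value, Ndufb2 at 8.379 CPM in S205A 2, belongs to a library of the 22 series.

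The effect differed between the knockout and Y198F comparisons, tested as an interaction in edgeR at an adjusted p under 0.05, for 27 members. The difference of log2 fold changes (knockout minus Y198F) was positive only for Uqcrb, at 0.76. In complex I it was -1.30 for Ndufa11, -1.13 for Ndufs7, -0.90 for Ndufa2, -0.81 for Ndufc1, -0.77 for Ndufb9, -0.72 for Ndufb11 and for Ndufa7, -0.67 for Ndufa3, -0.62 for Ndufs8 and -0.49 for Ndufv1. For complex II it was -0.53 for Sdhc and -0.43 for Sdhb. Other complex III genes were Uqcr11 (-0.75), Uqcrc1 (-0.70), Uqcrfs1 (-0.65) and Uqcr10 (-0.56). Complex IV held Cox6a1 (-1.05), Cox8a (-1.01), Cox4i1 (-0.81), Cox5a (-0.61) and Cox6b1 (-0.46). Complex V held Atp5d (-0.95), Atp5k (-0.91), Atp5g2 (-0.83), Atp5e (-0.63) and Atp5g3 (-0.55).

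Between Y198F and Y308F the effect differed for 12 members, each with a positive difference (Y198F minus Y308F). It was 1.20 for Ndufa11, 1.00 for Ndufs7, 0.90 for Ndufb9, 0.66 for Ndufa7 and 0.58 for Ndufb11 in complex I. In complex III it was 0.70 for Uqcrc1, 0.63 for Uqcr11 and 0.52 for Uqcrfs1. The remaining ones were Cox6a1 (1.01) and Cox8a (0.83) of complex IV and Atp5d (0.92) and Atp5g2 (0.82) of complex V. In both pairs the Y198F effect and the library series cannot be told apart.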

How the results depend on the processing

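The median over members kept its sign under the alternatives within each line for the knockout (-0.32 to -0.23 with a library left out) and Y308F (-0.31 to -0.11) but not for S205A (-0.10 to 0.04), and called members stayed at 0 in S205A and Y308F under each alternative run. With DESeq2, the knockout comparison called 156 genes and 5 members, S205A 38 genes, and Y198F against S205A controls of the 22 series 34. With no low-count filter the knockout called 243 genes and 3 members and Y308F 7 genes. With other lines' controls, chosen after seeing the data, the knockout called 1 gene, the median was -0.090, and 11 members turned positive (0.0096 to 0.13), Sdha (0.050) and Ndufb10 (0.027) among them. With all 8 groups in 1 fit, Y198F called 922 genes and 6 members and Cox7a2 in the knockout was -0.0095. With the S205A controls of the 22 series as controls, Y198F called 0 genes and 0 members, the median was -0.042, Ndufs7 -0.11 and Cox7b 0.069; with the series as a term, it called 0 genes and 0 members, the median was -0.056, Ndufs7 -0.15, Atp5d -0.0006248 and Cox7b 0.15. The series term within the S205A line alone called 902 genes and 10 members.

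With 1 library left out, genes called ranged from 1 to 5 in the knockout, 908 to 2128 in Y198F (members 8 to 16), 0 to 1 in S205A, 0 to 1 in Y308F and 282 to 2404 for the series term (members 3 to 23, median -0.039 to 0.29). Knockout values that changed sign were Cox6b2 (-0.50 to 0.16), Cox7a2 (-0.038 to 0.069) and Ndufb10 (-0.19 to 0.041). In Y308F they were Atp5b (-0.23 to 0.012), Atp5g3 (-0.25 to 0.0010), Cox4i2 (-0.39 to 0.11), Cox6b1 (-0.34 to 0.013), Cox6b2 (-0.023 to 0.44), Cox7a2 (-0.29 to 0.087), Ndufa4l2 (-0.62 to 0.042), Ndufs1 (-0.081 to 0.14) and Sdha (-0.022 to 0.14). The cause of these changes was not tested.

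Replicate numbers did not pair the libraries: same-numbered deviations correlated at -0.14 to 0.42 in the knockout, -0.08 to 0.14 in Y198F, -0.43 to 0.22 in S205A and -0.27 to 0.13 in Y308F. A replicate block gave 18 genes and 0 members in the knockout, 1760 genes and 12 members in Y198F, and 0 members in the others. The RefSeq promoter table left the NRF1 and ETS core shares within their intervals and moved the looser NRF1 form to 29.9% and YY1 to 11.9%.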
